A study of Mus musculus with 4 samples.

Results

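The cells described here are called megakaryocyte-lineage cells, after the line that makes platelets, in 4 droplet single-cell RNA libraries from mouse bone marrow and spleen. Those with few genes are described apart below, and whether all of these cells are platelet precursors was not tested. They were selected on measured values: a barcode was kept when it held at least 1000 genes, had at most 10% of its molecules (UMIs) from mitochondrial genes, had at least 3 of the 5 genes Pf4, Itga2b, Gp9, Vwf and Gp1bb detected, and had at least 20 UMIs per 10000 from these 5 genes. The rule found 520 cells among the 16261 barcodes that passed the gene and mitochondrial limits. Control bone marrow (CBM) gave 147 of 3497, tumor bone marrow (TBM) 220 of 4340, control spleen (CS) 83 of 3236 and tumor spleen (TS) 70 of 5188. Where 4 values follow one another below without names, they stand for CBM, TBM, CS and TS in that order.

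Megakaryocytes arise from stem and progenitor cells, copy their genome repeatedly without dividing, fill their cytoplasm with granules, and release platelets from long cytoplasmic extensions. Platelets have no nucleus and carry RNA that the megakaryocyte packed into them. In the mouse the spleen makes megakaryocytes alongside the marrow, and the lineage is also known as a source of the chemokine PF4 and of transforming growth factor beta, which act on blood stem cells.

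The mice were C57BL/6J animals of 8 to 16 weeks. All were female as far as the methods state. Tumor-bearing mice carried PyMT-B6, a breast cancer line from an MMTV-PyMT mouse of the same strain, from 500000 cells injected subcutaneously, and tissue was taken on day 21. Each group was 1 library, and the number of mice behind each is not given in the sources used here, so no difference between libraries could be tested: all intervals below cover counting error only. Digested tissue was depleted of mature lineages, sorted into CD45+ c-Kit+ progenitors and CD45- endothelial and stromal populations, and mixed again in equal parts. Every share of cells below therefore refers to that mixture and not to the organ.

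The libraries held between 101811035 and 176094297 UMIs in all. The selected cells had median UMI counts of 26508, 27087, 34887 and 13358, where the other cells of the same libraries had medians of 13407, 13639, 26156 and 27060. The TS members were thus the shallowest of the 4 sets and the only ones with fewer UMIs than their neighbours. No doublet caller was run. The rule of another class (erythroid, mast or basophil, granulocyte-monocyte or stem-like) was also met by 27 of the 520 cells, 20 of them in TBM and 0 in TS, and no member barcode appeared in more than 1 library although 27 barcodes of the wider set did.

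In CBM the members made up 4.204% of the cells (exact binomial 95% interval 3.56 to 4.92) and in TBM 5.07% (4.44 to 5.76). The share was 2.56% in CS (2.05 to 3.17) and 1.35% in TS (1.05 to 1.70). The 2 marrow libraries were thus above the 2 spleen libraries, and tumor spleen was the lowest. This order depended on the limit on genes. With barcodes of 350 genes or more the shares were 3.67%, 2.02%, 2.65% and 3.03%, with TBM lowest and TS above CS.

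**Figure D1:**
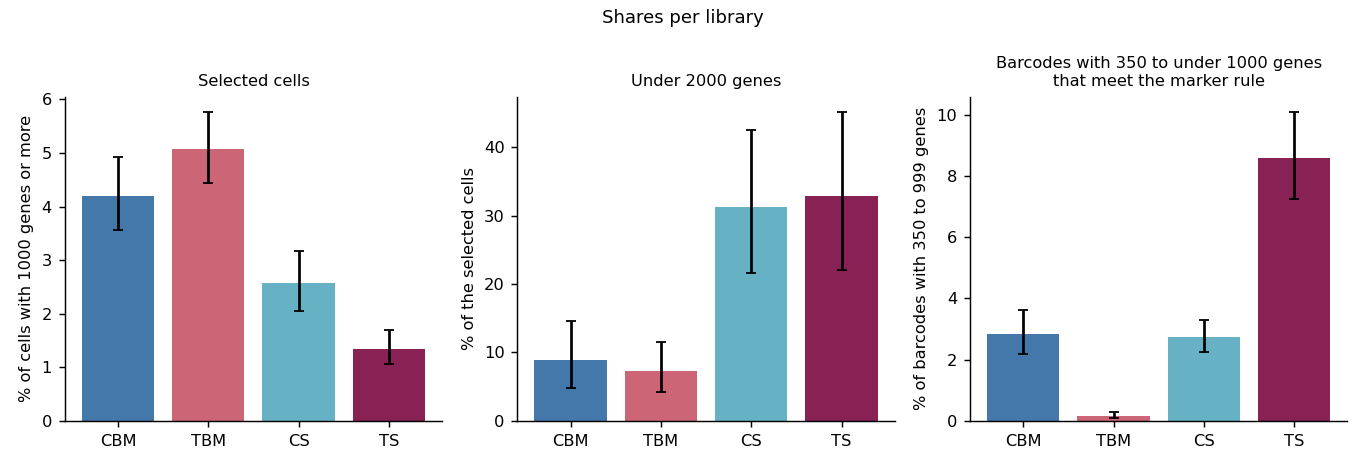
The panels give, for each of the 4 libraries, the selected cells as a percent of barcodes that passed the gene and mitochondrial limits (left), the selected cells with under 2000 genes as a percent of all selected cells (middle), and the barcodes with 350 to under 1000 genes that meet the marker rule as a percent of all such barcodes (right), with exact binomial 95% intervals. The selected share runs from 1.35% in TS to 5.07% in TBM, while the cells with few genes are 7.27% to 8.84% of the marrow members and 31.3% to 32.9% of the spleen members.

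The threshold cut through a continuous range rather than a gap. The marker sum just below it was 19.9, 19.9, 19.3 and 19.8 UMIs per 10000, and the lowest members had 20.4, 20.3, 21.7 and 20.3. Between 10 and 20 UMIs per 10000 with 3 markers lay 24, 73, 22 and 24 cells that were left out, most of them in TBM. All 5 markers were detected in 101, 144, 72 and 51 of the members. The 5 marker genes themselves are used below only to describe the cells, since they chose them.

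Genes outside the rule mostly matched the label. Gp5, a subunit of the platelet receptor for von Willebrand factor, stood at 169, 108, 207 and 240 CPM (UMIs of a gene per 1000000 UMIs of the same cells) in the members, and at 7.42, 5.74, 14.9 and 12.5 CPM in the other cells. Itgb3, which pairs with Itga2b to form the fibrinogen receptor, was at 168, 285, 193 and 429 CPM against 6.89, 12.2, 2.78 and 2.76 CPM. Both genes were several times higher in the members than in the other cells of every library. The 15 genes whose lowest ratio to the other cells was highest over the 4 libraries were Ppbp, Clec1b, Mrvi1, Treml1, Myom1, Cavin2, Timp3, F2rl2, Rab27b, Gucy1a1, Itgb3, Trpc6, Kalrn, Pde5a and Gp5. Among them are platelet surface receptors (Clec1b, which binds podoplanin, Treml1 and Gp5), the chemokine precursor Ppbp, and Rab27b, which acts in granule release.

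Markers of other classes were low but not absent. The 12 genes of the granulocyte-monocyte list summed to 750, 553, 907 and 150 CPM in the members, against 8042, 16115, 1366 and 2291 CPM in the other cells. The 14 erythroid genes summed to 697, 243, 676 and 430 CPM. Mast and basophil genes summed to between 6.15 and 68.6 CPM, genes of monocytes and macrophages to 23.4 to 109 CPM, of dendritic cells to 91.7 to 284 CPM and of B cells to 26.2 to 88.9 CPM, below the other cells in every library. The genes of T, NK and innate lymphoid cells were not below them throughout, at 255, 139, 248 and 253 CPM against 247, 329, 237 and 154 CPM. Endothelial genes summed to between 39.7 and 101 CPM and stromal genes to between 6.56 and 56.4 CPM. In TS both were higher in the members than in the other cells, where they stood at 73.0 and 12.5 CPM, and the part of such cells in the results was not tested. The granulocyte list had the highest of these sums in CBM, TBM and CS, but in CS 82.6% to 97.2% of the UMIs of its genes Elane, Mpo, Ctsg and Prtn3 lay in 1 cell, and in CBM 40% of those of Elane. This order of the lists thus rests in part on single cells, and the genes are treated apart below.

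The chemokine genes Pf4 and Ppbp are neighbours on chromosome 5. Pf4 was one of the genes that chose the cells, and Ppbp led the named genes of spleen over marrow in control mice, so the 250 bases before each RefSeq start (GRCm38.p6) are shown. Capitals mark ACTTCC, the reverse complement of GGAAGT, a core sequence of the ETS family to which the megakaryocyte factor Fli1 belongs.
Pf4, chr5:90772185-90772434, plus strand: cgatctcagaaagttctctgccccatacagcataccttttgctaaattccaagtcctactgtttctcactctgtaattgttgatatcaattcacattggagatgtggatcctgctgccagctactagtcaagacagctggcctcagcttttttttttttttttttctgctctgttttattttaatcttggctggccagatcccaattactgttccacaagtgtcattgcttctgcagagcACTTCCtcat
Ppbp, chr5:90768268-90768517, plus strand: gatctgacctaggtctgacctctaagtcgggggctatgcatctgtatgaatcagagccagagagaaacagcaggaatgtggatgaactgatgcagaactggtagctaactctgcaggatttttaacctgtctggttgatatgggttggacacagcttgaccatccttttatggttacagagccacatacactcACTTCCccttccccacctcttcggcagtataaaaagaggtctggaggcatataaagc

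The match lay 5 to 10 bases before the Pf4 start and 52 to 57 bases before the Ppbp start. Both strands were searched for this motif and for AGATAA, the core that factors such as Gata1 and Gata2 read. Neither window held the latter or its reverse complement, and no match of one motif overlapped the other. For the counts that follow, the windows of a single chromosome were left out. Of the remaining 32851 RefSeq windows of this length 19.7% held the ETS motif and 9.99% the other. Of the 86 genes on the platelet and megakaryocyte lists with the 5 selecting genes, 66 had a window among these. Of their 77 windows 26.0% and 9.09% held the motifs in the same order. Of the 15 genes highest in the small cells described below, 11 matched, and 6.25% and 0% of their 16 windows held them. The windows of Clec1b and Tubb1 held neither motif. The matches are descriptions of letters and not of bound sites.

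The selected cells were of 2 kinds by the number of genes detected. Of the 520 cells, 442 held 2000 genes or more and 78 held fewer; this limit was set after the data were seen. In marrow the cells with fewer genes were 13 of the CBM members (8.84%, interval 4.79 to 14.6) and 16 of the TBM members (7.27%, 4.21 to 11.5). In spleen they were 26 of the CS members (31.3%, 21.6 to 42.4) and 23 of the TS members (32.9%, 22.1 to 45.1). Their share of the members was thus higher in both spleen libraries than in both marrow libraries, with intervals that do not overlap. In CS no member lay between 1629 and 2597 genes and in TS none between 1408 and 2532, while in the marrow libraries the gap was narrow, from 1819 to 2010 in CBM and from 1890 to 2115 in TBM.

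**Figure D2:**
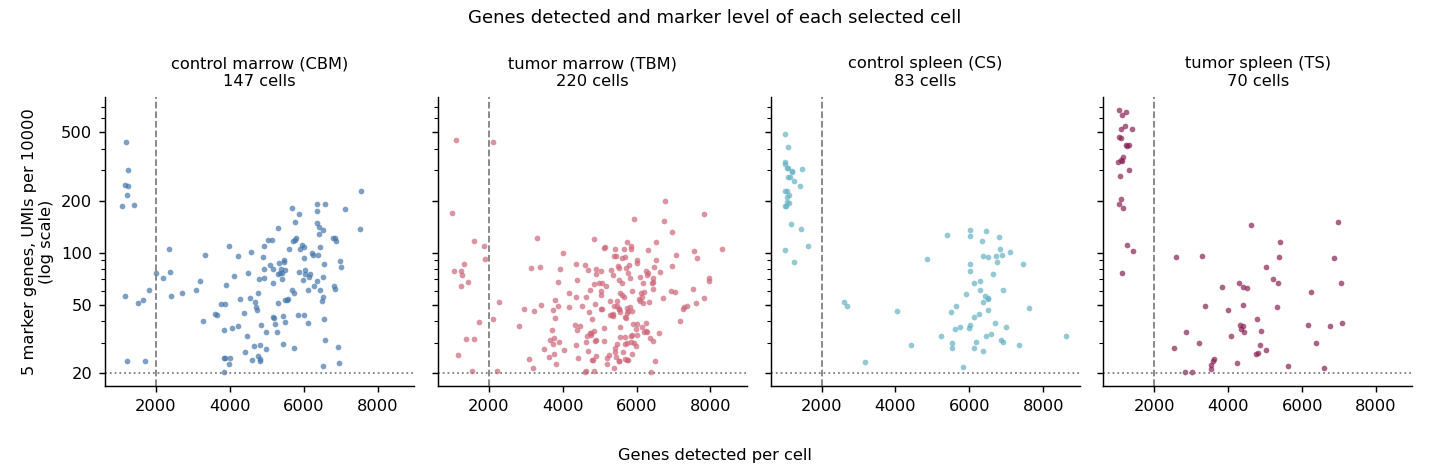
Each point is 1 selected cell of CBM, TBM, CS or TS, with genes detected on the horizontal axis and the summed UMIs of the 5 selecting genes per 10000 on a log vertical axis. The dashed line marks 2000 genes and the dotted line the selection threshold of 20; in CS and TS the cells with few genes form a group of their own with marker sums mostly above 100.

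The small cells carried few UMIs and, summed per library, held more platelet gene RNA per UMI than the larger cells. Their median UMI counts were 4347, 2852, 3387 and 3401, against 28110, 28043, 41318 and 19198 in the cells with 2000 genes or more. The 81 genes of the platelet and megakaryocyte lists, which leave out the 5 selecting genes, summed to 74164, 20864, 94916 and 103282 CPM in the small cells. In the larger cells of the same libraries the sums were 9553, 9134, 9841 and 10192 CPM, close to one another. Ribosomal protein genes moved the other way, with 6.05%, 20%, 5.59% and 5.41% of UMIs in the small cells and 30.3%, 30.2%, 29.4% and 29.0% in the larger ones.

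Genes were ranked by the ratio of small to larger cells over CBM, CS and TS, without TBM. The highest in this ranking were mostly platelet genes. Ppbp, the precursor of the platelet chemokines CXCL7, was at 5832, 1830, 10582 and 15030 CPM in the small cells and at 32.9, 53.6, 55.5 and 123 CPM in the larger ones. Thbs1, an adhesive protein of platelet alpha granules, was at 4949, 1077, 5712 and 6349 CPM against 41.1, 29.8, 38.4 and 70.1 CPM. Tubb1, the tubulin of the platelet's marginal band, was at 739, 43.1, 903 and 647 CPM against 3.32, 1.98, 4.70 and 6.54 CPM. In CBM, CS and TS all 3 were higher in the small cells, with a lowest log2 ratio over these libraries of 6.93 for Ppbp, 6.50 for Thbs1 and 6.63 for Tubb1. In TBM each of the 3 had a UMI in only 2 of the 16 small cells, 1 cell held 82 of the 85 Ppbp UMIs, and Tubb1 lay below the 64.6 CPM that 3 counts would give, so these TBM levels describe 1 or 2 cells. Myl9, Alox12, Cald1, Cd226, Tubb2a, Parvb, Tsc22d1, Gng11, Mmd, Clec1b and Igtp were also among the 15 highest.

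Other genes were lower in the small cells. In the ranking over CBM, CS and TS, again without TBM, 10 genes had the lowest ratio of small to larger cells. They were Set, Anp32b, Slc25a5, Hsp90ab1, Npm1, Naca, Rack1, Ptma, Hspe1 and Ran. Set, a histone chaperone, had log2 ratios of small over larger cells of -3.04, -0.89, -3.96 and -3.30. Mki67, a gene of dividing cells, was at 405, 477, 541 and 536 CPM in the larger cells, and at 145, 345, 0 and 24.4 CPM in the small ones. For the small cells of CS the level that 3 counts would give was 30.4 CPM, so that 0 counts there means a level below that. The 2 marrow libraries thus had higher Mki67 levels in their small cells than the 2 spleen libraries. The G2 and mitosis list summed to 562, 2476, 284 and 244 CPM in the small cells, with TBM far above the rest. In the larger cells it summed to 2453, 2562, 3206 and 2855 CPM. The S-phase list did not split by organ, with sums of 1093, 1766, 1471 and 1429 CPM in the small cells. It was higher in the larger cells of every library, at 2660, 2581, 2543 and 2411 CPM.

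The small cells also differed in the surface genes on which the pool was sorted. Kit, the receptor of the progenitor gate, was at 93.9, 66.8, 79.9 and 82.2 CPM in the larger cells. In the small cells it was at 64.3 and 64.6 CPM in CBM and TBM, and no UMI was found in CS or TS, where 3 counts would give 30.4 and 36.6 CPM. Pecam1, which encodes CD31 and is carried by endothelium and platelets alike, was at 353, 129, 345 and 403 CPM in the small cells and at 43.4, 48.6, 48.7 and 60.7 CPM in the larger ones. Ptprc, which encodes CD45, was at 65.8 to 81.3 CPM in the larger cells and at 64.3, 172, 10.1 and 12.2 CPM in the small ones. The small spleen cells were therefore low in the RNA of both progenitor gate markers and high in Pecam1; through which gate a cell came was not recorded.

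**Figure D3:**
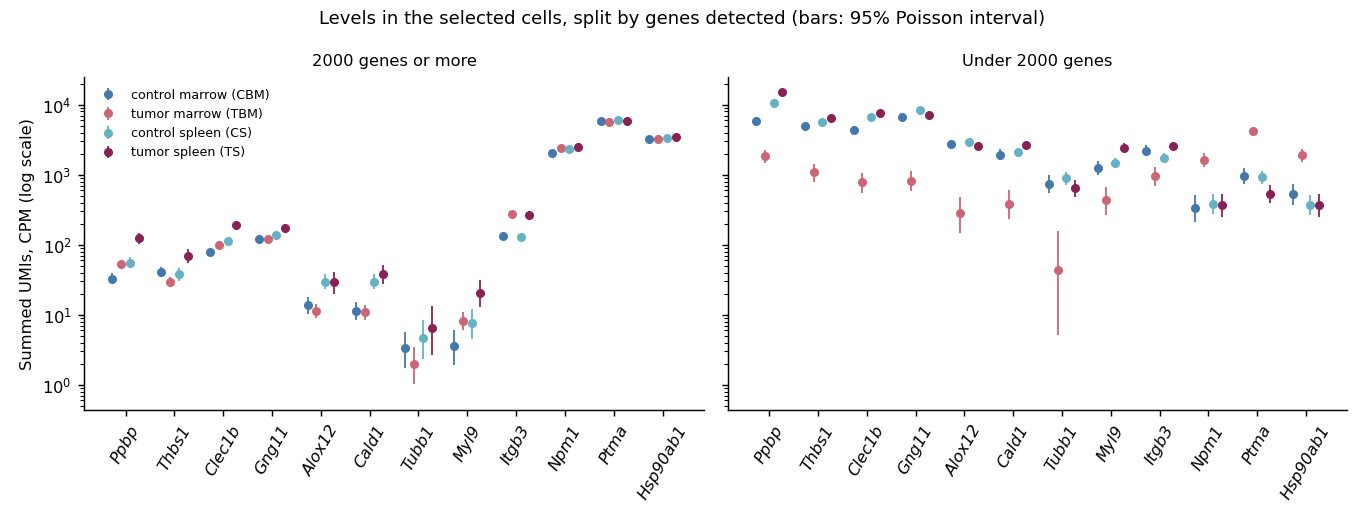
Summed UMIs as CPM on a log axis for 12 genes in selected cells with 2000 genes or more (left) and under 2000 genes (right), in CBM, TBM, CS and TS, with 95% Poisson intervals for counting error. The platelet genes from Ppbp to Myl9 are higher on the right and Npm1, Ptma and Hsp90ab1 lower, and the TBM points lie below the other 3 libraries for the platelet genes on the right.

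The small cells of TBM differed from the other small cells in several sums. Their platelet list sum of 20864 CPM was the lowest of the 4 libraries, their ribosomal share of 20% the highest. Their median mitochondrial share was 4.78%, against 1.06% to 1.85% in the other 3 libraries. Malat1, a nuclear RNA, was at 82278, 16299, 903 and 5104 CPM in the small cells, and at between 7705 and 11916 CPM in the larger cells. As sums, the small cells of CBM were therefore far above the larger ones in this nuclear RNA, and those of CS and TS below them. The CBM sum comes from 13 cells, of which 1 held 10615 of their 62240 UMIs. How Malat1 was spread over these cells is not given here.

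Barcodes below the 1000-gene limit also met the marker rule. Of barcodes with 350 to under 1000 genes, the rest of the rule was met by 64 of 2255 from CBM (2.84%) and 12 of 7121 from TBM (0.169%). In spleen it was met by 108 of 3961 from CS (2.73%) and 135 of 1572 from TS (8.59%). In both spleen libraries more barcodes met the marker rule below the limit of 1000 genes than above it, and in both marrow libraries fewer did. The barcodes below the limit that met the rule held 10.6%, 13.3%, 10.9% and 9.08% ribosomal UMIs, against the 29.0% to 30.3% of the larger members, so that they differed from these in composition as well as in depth. Values below are given for all members and for the 442 cells with 2000 genes or more. The latter were 3.83%, 4.70%, 1.76% and 0.906% of the barcodes that passed the limits, with the same ranking of libraries as all members.

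The transcription factors of the lineage were at similar levels in the 4 libraries. Of the 16 listed factors that averaged 50 CPM or more, 0 were 2-fold higher or lower in any of the 4 comparisons, and their median log2 ratio lay between -0.21 and 0.02. Of all genes only 0.0321% to 2.41% passed in any one direction and comparison, so a count of 0 among so few genes is near that background, here and for the lists that follow. In cells with 2000 genes or more Fli1, an ETS factor needed for late megakaryocyte genes, was at 459, 397, 380 and 348 CPM. Runx1, which restrains earlier fates in the lineage, was at 287, 278, 261 and 315 CPM. Both stayed within a narrow range, with Fli1 highest in CBM and Runx1 in TS. Mef2c was at 918, 748, 773 and 701 CPM, Gata2 at 261, 197, 223 and 184 CPM, and the GATA partner Zfpm1 at 400, 333, 434 and 360 CPM. Gata1, the factor shared with erythroid cells, was low throughout, at 69.2, 55.4, 49.1 and 58.9 CPM.

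Cell cycle genes had counts of 0 as well. None of the 15 to 16 S-phase genes and none of the 15 to 17 genes of G2 and mitosis that were abundant enough passed 2-fold in any comparison. The G2 and mitosis list had a median log2 ratio of 0.36 for CS over CBM, against 0.02 for all genes, and -0.21 for TS over CS. Heat shock genes, cytokine receptors and niche signals had 0 genes past 2-fold as well, with only 2 of the 21 cytokine receptors and 2 of the 20 niche signal genes abundant enough to be counted. Tgfb1, the growth factor stored in alpha granules, was at 440, 421, 464 and 419 CPM in the cells with 2000 genes or more. The interval of each of its 4 log2 ratios included 0.

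Tumor over control was compared in each organ. A gene was counted when its ratio was 2-fold or more and the interval of the ratio left out 1, among genes averaging 50 CPM or more in the libraries compared and without the 5 selecting genes. In marrow 9 of 3120 genes were higher in TBM (0.288%) and 8 were lower (0.256%). In spleen 22 of 3152 were higher in TS (0.698%) and 13 were lower (0.412%). The median log2 ratio of all genes counted was 0.02 in marrow and 0.00 in spleen. Scaling each library to its own total holds this median near 0, so it does not tell how many genes differed. Of the platelet and megakaryocyte lists 0 of 38 genes were higher and 1 (Thbs1) was lower in TBM, and 4 of 50 were higher and 0 lower in TS, with median log2 ratios of -0.19 and 0.18.

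With the 442 cells of 2000 genes or more the counts were 11 higher (0.353%) and 6 lower (0.192%) of 3118 genes in TBM, and 13 higher (0.414%) and 13 lower (0.414%) of 3139 in TS. The lists then had a median log2 ratio of -0.03 in marrow and 0.06 in spleen, with Itgb3 as the only list gene past 2-fold in marrow and Itgb3 and Ppbp in spleen. In spleen the Ppbp ratio was 0.51 (0.10 to 0.92) without the TS cell with most of its UMIs, and 1.47 (0.98 to 1.95) when the CS cell with most of them, which held 49.2%, was left out as well. The marrow and spleen comparisons share no library, but whether the same mice gave both organs is not given in the sources used here. Agreement between the organs is therefore not taken as replication. Of 2976 genes counted in both, 9 were higher in marrow and 10 in spleen, and 6 of these were higher in both: Skil, Clca3a1, Cd69, Ifitm1, Itgb3 and Serpina3g. Lower were 4 in marrow and 12 in spleen, with Apoe, Gnaz and Elane lower in both, and 0 genes were past 2-fold in opposite directions. For Elane 98.5% of the CS UMIs lay in 1 cell and 41.1% of the CBM UMIs in 1 cell, and without these the ratios were 1.70 (0.39 to 3.09) in spleen and -0.85 in marrow, or 1.51 (0.14 to 2.93) and -1.01 without the top cell of each tumor library as well. Skil, Smad7, Pim1, Gnaz, Pecam1 and the genes ranked by small over larger cells are named outside the fixed rule, chosen after their values were seen.

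Skil, which encodes SnoN, a repressor of Smad signalling that transforming growth factor beta itself induces, had the largest increase in both organs. In cells with 2000 genes or more it was at 31.9 CPM in CBM and 156 in TBM, and at 27.3 CPM in CS and 159 in TS. The tumor libraries thus lay close together, as did the controls, with a wide gap between them. The log2 ratio was 2.29 (interval 2.02 to 2.57) in marrow and 2.54 (2.12 to 2.98) in spleen, and 2.26 and 2.49 without the cell that held most of its UMIs. In the other cells of the same libraries it was 0.77 and 0.16. The granulocyte-monocyte class gave 1.02 and 0.75, the erythroid class 0.56 and 0.99, and the mast or basophil class 0.34 and 0.30, so each of these had a smaller ratio than the members.

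More cells held a Skil UMI as well. After each cell was thinned to 2000 UMIs, 5.97%, 27.5%, 3.51% and 12.8% of the larger members held one. The granulocyte-monocyte class had 2.98%, 7.50%, 2.91% and 4.57%. Before thinning the members' shares were 53.7%, 90.7%, 49.1% and 87.2%. Smad7, another inhibitor of Smad signalling induced by the same pathway, was at 23.7, 76.4, 26.9 and 64.5 CPM. It was higher in both tumor libraries, with log2 ratios of 1.69 (1.36 to 2.02) and 1.26 (0.75 to 1.78), against 0.46 and 0.19 in the other cells. In spleen Smad7 averaged below the 50 CPM limit and was not among the genes counted. The intervals of the Tgfb1 ratios, given above, included 0. Skil lies on chromosome 3 at 31095058 to 31122577 on the plus strand (GRCm38).

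Serpina3g, an intracellular inhibitor of cathepsins, was at 147, 489, 211 and 564 CPM. Again both tumor libraries lay above both controls, with log2 ratios of 1.74 (1.61 to 1.87) and 1.42 (1.25 to 1.59). Its ratio in the other cells was 1.37 in marrow and 0.13 in spleen, and in the mast or basophil class 4.18 and 3.20, so the difference was not particular to the members in either organ. Thinned, 19.4%, 52.5%, 33.3% and 55.3% of the larger members held a UMI, against 2.15% to 15.6% of the granulocyte-monocyte class. The gene lies on chromosome 12 at 104236245 to 104241939 on the plus strand, in a family of close copies between which the counting could divide reads.

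Cd69, a surface lectin of activated blood cells that also occurs on platelets, was at 32.7, 110, 79.0 and 206 CPM. Its log2 ratios were 1.75 in marrow and 1.39 in spleen, against 0.37 and -0.16 in the other cells. In TS 22.2% of its UMIs came from 1 cell, and without that cell the ratio was 1.08 (0.77 to 1.39), or 1.19 without the top cell of CS as well. Clca3a1, of a family named after chloride channel accessory proteins, was at 35.7, 108, 58.5 and 177 CPM, with a log2 ratio of 1.59 in each organ and of 1.49 and 0.75 in the other cells. Both genes had the same order of libraries, CBM, CS, TBM and TS from low to high.

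Itgb3, introduced above, was at 135, 280, 128 and 266 CPM in the cells with 2000 genes or more. The log2 ratio was 1.05 (0.91 to 1.19) in marrow and 1.06 (0.82 to 1.30) in spleen, and in spleen 0.99 without the TS cell with most of its UMIs and 1.20 (0.94 to 1.45) without that of CS as well. Its partner Itga2b was among the selecting genes and was not counted. Not every receptor of the platelet surface shared this pattern. Treml1 was lower in TBM, at 136, 85, 117 and 122 CPM. Rab27b was also lower in both tumor libraries, at 327 and 177 CPM in marrow and 293 and 207 CPM in spleen, with log2 ratios of -0.89 and -0.50.

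Ifitm1, an interferon-induced membrane protein, was at 71.5, 181, 71.8 and 191 CPM, with log2 ratios of 1.34 and 1.41. In TS 46.1% of its UMIs came from 1 cell, and in CS 22.6%. The spleen ratio was 0.55 (0.18 to 0.90) without the TS cell and 0.89 (0.51 to 1.27) without both. It was the only one of the 6 interferon-stimulated genes abundant enough to be counted that passed 2-fold in either organ, and the list's median log2 ratio was 0.10 in marrow and close to 0 in spleen. Pim1, a kinase induced by cytokine signals, was at 125, 237, 120 and 291 CPM, higher in both tumor libraries by log2 ratios of 0.92 and 1.29. Mt1, a metallothionein, was higher by 1.14 and 0.57, close to the 1.20 and 0.60 of the other cells.

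**Figure D4:**
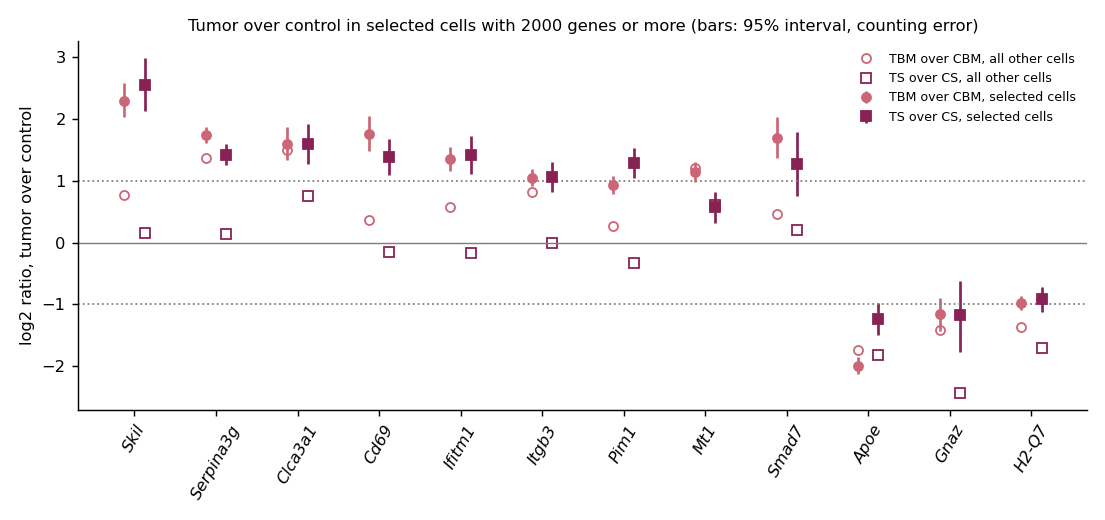
Log2 ratios of tumor over control for 12 genes in selected cells with 2000 genes or more (filled, with 95% intervals for counting error) and in all other cells of the same libraries (open), for marrow (TBM over CBM, circles) and spleen (TS over CS, squares); dotted lines mark 2-fold. Skil, Cd69, Pim1 and Smad7 have filled points above the open ones in both organs, whereas Apoe and H2-Q7 lie below 0 in both sets of cells.

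Apoe and Gnaz, past 2-fold lower in both organs, and H2-Q7, lower by just under 2-fold, were also lower in the other cells. Elane was not, with log2 ratios of 0.32 and 0.0065 there. Apoe, a lipid carrier, was at 434 CPM in CBM and 110 in TBM, and at 339 in CS and 145 in TS. The log2 ratios of -1.99 and -1.23 stood beside -1.74 and -1.82 in the other cells. H2-Q7, a class Ib histocompatibility gene with close copies nearby, was at 346, 176, 471 and 249 CPM, with -0.98 and -0.92 against -1.36 and -1.71. Gnaz, the alpha subunit of a platelet G protein, was at 71.7, 32.1, 69.6 and 30.8 CPM. Its ratios were -1.16 (-1.43 to -0.89) and -1.18 (-1.76 to -0.63), and the other cells, which held 2.21 CPM or less, gave -1.40 and -2.43. All 3 were thus lower in both tumor libraries among members and other cells alike.

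Some other genes that led the tumor comparisons had the same direction in both organs, mostly at smaller size. Muc13 was at 103, 194, 119 and 212 CPM, Serpinb1a at 76.1, 134, 72.2 and 129 CPM, and Neat1, a nuclear RNA, at 124, 222, 181 and 249 CPM. The cold-inducible RNA-binding genes Rbm3 and Cirbp were at 795, 1377, 611 and 1087 CPM and at 84.2, 146, 43.6 and 123 CPM. Each of these 5 was higher in both tumor libraries. Only Cirbp passed 2-fold, in spleen, where its log2 ratio was 1.46 (1.07 to 1.85) without the TS cell with most of its UMIs. For Rbm3 the other cells differed by nearly as much, with log2 ratios of 0.68 and 0.67 beside 0.79 and 0.83. Not all leading genes agreed between the organs. Over all members Tubb2a and Ppbp were lower in TBM than in CBM and higher in TS than in CS.

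Granule genes of the neutrophil line were lower in TS than in CS, and the difference lay in 1 cell. Elane, neutrophil elastase, was at 245 CPM in the CS members and 17.4 CPM in the TS members, a log2 ratio of -3.82. Of the CS counts 97.2% came from a single cell, and without it the ratio was 1.25 (0.25 to 2.28). For Mpo, Ctsg and Prtn3 the same held: 92.9%, 90.4% and 82.6% of CS counts came from 1 cell, and the log2 ratios of -3.88, -2.54 and -1.75 became -0.12, 0.79 and 0.71 without it. In marrow Elane was at 130 and 50.2 CPM, with 40% of CBM counts in 1 cell and a ratio of -0.65 without it. Over all members, 10 of 33 genes checked in spleen and 1 of 15 in marrow were no longer 2-fold without the cell holding most of their UMIs in the higher library, besides Elane in spleen, which changed sign. With the top cell of both libraries left out these counts were 7 and 1, Elane included in each.

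Some genes of the receptor, inflammation and progenitor lists stood below the 50 CPM limit, and those given here were picked after their values were seen. Over all members the 21 receptor genes together summed to 450, 502, 419 and 461 CPM. The 20 inflammation genes summed to 313, 470, 426 and 634 CPM. Il1r1, the interleukin receptor that binds both forms of interleukin 1, was at 6.64 CPM in CBM and 20.5 in TBM, and at 6.84 in CS and 14.0 in TS. The log2 ratio was 1.63 (1.01 to 2.30) in marrow and 1.04 (-0.08 to 2.15) in spleen, where the interval includes 0. Csf2rb, the shared receptor chain for myeloid growth factors, was at 9.70, 24.6, 2.99 and 12.1 CPM. Nfkbiz, an inhibitor family member induced by inflammatory signals, was at 7.91, 23.6, 15 and 36.4 CPM, and Cd34, a progenitor surface gene, at 23.2, 55.4, 16.2 and 36.4 CPM. For Csf2rb, Nfkbiz and Cd34 the intervals of the ratios lay above 0 in both organs, and for Il1r1 in marrow only. By contrast, the 2 receptor genes abundant enough to be counted had median log2 ratios over all members of -0.14 in marrow and 0.03 in spleen. Cells that met another class rule, 6 in CBM and 20 in TBM over all members, were not left out. Tnf itself was at 2.30 and 2.48 CPM in marrow and at 13.2 and 14.0 CPM in spleen, with no visible difference between tumor and control.

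Spleen over marrow was compared in control and in tumor-bearing mice. These comparisons share their libraries with the tumor comparisons and are not independent of them. Of 3115 genes 20 were higher in CS than in CBM (0.642%) and 1 was lower (0.0321%), and of 3149 genes 76 were higher in TS than in TBM (2.41%) and 6 were lower (0.191%). The higher genes included 7 of 44 platelet and megakaryocyte list genes in control mice and 16 of 44 in tumor-bearing mice, with median log2 ratios of 0.24 and 0.58 against 0.02 and -0.02 for all genes. In the other cells the medians over the same list genes were -0.27 and -0.85.

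Platelet genes led these counts. Over all members Ppbp was at 124, 67.1, 481 and 1183 CPM. Clec1b was at 147, 106, 378 and 711 CPM, Thbs1 at 118, 37.7, 268 and 516 CPM, Alox12, the platelet lipoxygenase, at 56.0, 13.5, 147 and 211 CPM, and Gng11, a G protein subunit, at 223, 127, 477 and 667 CPM. In each case TBM was lowest and TS highest. The log2 ratios of TS over TBM were 4.14 for Ppbp, 2.75 for Clec1b and 3.77 for Thbs1. In TBM 53.3% of the Ppbp UMIs and 50% of the Thbs1 UMIs came from 1 cell. Without the top cell of both libraries the 3 ratios were 5.06, 2.84 and 4.63. For CS over CBM the ratios of Thbs1 and Gng11 were 0.99 each without the CS cell with most of their UMIs, and 1.30 and 1.16 without that of CBM as well.

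The order of the libraries was that of the share of small cells among the members, which was lowest in TBM and highest in TS. Within each organ the intervals of that share overlapped. The levels are sums, however, so cells count by their UMIs. The small cells held 62240, 46444, 98561 and 81902 UMIs, and the larger cells 3917791, 6048978, 2340879 and 1070356. By UMIs the small cells were thus a smaller part of TBM than of CBM, and a larger part of TS than of CS. Whether either share accounts for the order was not tested. In the cells with 2000 genes or more 7 of 3108 genes were higher in CS (0.225%) and 1 was lower (0.0322%), and 9 of 3143 were higher in TS (0.286%) and 5 were lower (0.159%). Of the platelet and megakaryocyte lists 0 of 37 genes remained past 2-fold in CS, and only Ppbp of 38 in TS, with median log2 ratios of 0.02 and 0.14. Clec1b was then at 79.1, 101, 112 and 191 CPM and Thbs1 at 41.1, 29.8, 38.4 and 70.1 CPM. Ppbp was at 32.9, 53.6, 55.5 and 123 CPM, with a log2 ratio of TS to TBM of 1.20. In TS 36.4% and in TBM 67.3% of these UMIs came from 1 cell. The ratio was 0.56 (0.20 to 0.91) without the TS cell and 2.17 (1.74 to 2.60) without both, so that its size rests on single cells.

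Some immediate-early genes were higher in spleen than in marrow in the larger cells. Jun, a subunit of the AP-1 factor, was at 286, 455, 731 and 1419 CPM. The log2 ratio of spleen over marrow was 1.36 (1.25 to 1.47) in control and 1.64 (1.55 to 1.73) in tumor-bearing mice, against 1.07 and 0.46 in the other cells. Egr1, a zinc finger factor of the same response, was at 439, 557, 900 and 1221 CPM, with ratios of 1.04 and 1.13, against 0.65 and -0.11 in the other cells. Nfkbia, the inhibitor that NF-kB induces against itself, was at 63.0, 78.7, 162 and 263 CPM, with 1.36 and 1.74 beside 1.18 and 1.20 in the other cells. For all 3 the order was CBM, TBM, CS, TS from low to high.

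Not every gene of the response followed. Fos was at 806, 1003, 1007 and 840 CPM, so that CBM and TS were lowest. Egr3 was at 57.7, 124, 116 and 84.1 CPM, higher in TBM than CBM by a log2 ratio of 1.10 and lower in TS than CS by a ratio of -0.46. Klf6 was at 56.4, 58.2, 80.3 and 33.6 CPM, lowest in TS. Of the list 3 of 14 genes (Jun, Egr1 and Egr3) passed 2-fold for CS over CBM and 2 of 15 (Jun and Egr1) for TS over TBM, with median log2 ratios of 0.60 and 0.64. Over all members the medians were 0.56 and 0.53, and in the other cells they were 0.58 and -0.07 for the same genes, so the control difference was as large there. For tumor over control the list's medians over all members were 0.44 in marrow and 0.48 in spleen, against -0.04 and -0.59 in the other cells. In marrow all 15 genes counted had a ratio above 0, and in spleen 9 were above and 7 below. For Egr3 the ratio of CS over CBM was 0.93 (0.66 to 1.19) without the CS cell with most of its UMIs and 1.07 (0.79 to 1.34) without that of CBM as well.

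**Figure D5:**
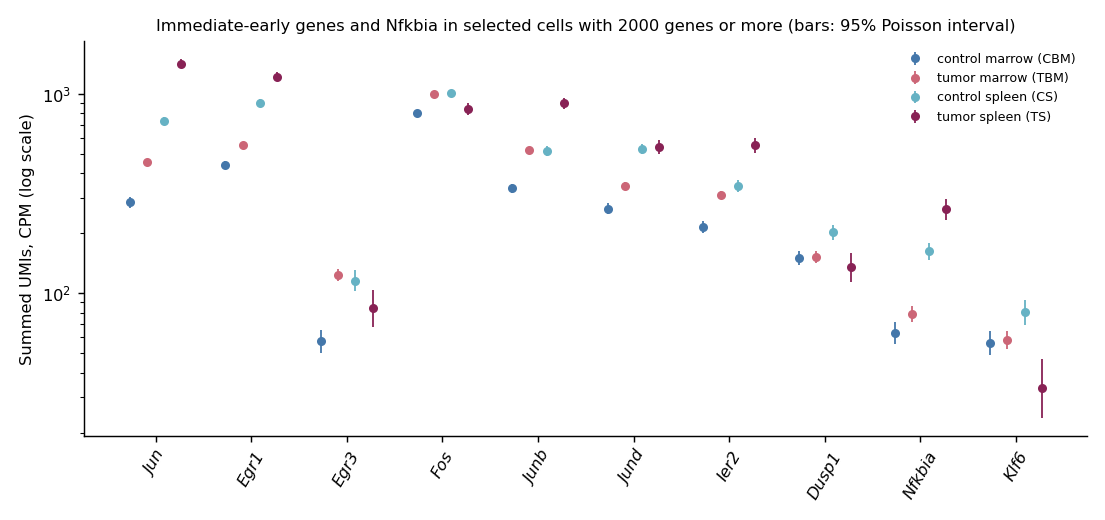
Summed UMIs as CPM on a log axis for immediate-early genes and Nfkbia in selected cells with 2000 genes or more of CBM, TBM, CS and TS, with 95% Poisson intervals for counting error. Jun, Egr1 and Nfkbia step up from CBM over TBM and CS to TS, while Fos is level and Egr3 is highest in TBM and CS.

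The most abundant RNAs of the members were ranked without the 5 selecting genes and without mitochondrial, ribosomal, hemoglobin, immunoglobulin, Xist and Y-linked genes. The first 10 were Tmsb4x, Malat1, Ptma, Eef1a1, Tpt1, Actb, Hsp90ab1, Rack1, Ppia and Gm42418. Gm42418, which overlaps a ribosomal RNA repeat, was lower in spleen, at 3688, 3369, 2327 and 2076 CPM over all members and at 3602, 2704, 2308 and 1531 CPM in the other cells. H2-Ab1, a class II gene of antigen-presenting cells, was at 30.4, 14.2, 93.6 and 19.6 CPM in members with 2000 genes or more and at 46.4, 26.9, 704 and 52.4 CPM in the other cells. In barcodes too small to be cells, which hold free RNA, it was at 41.7, 18.2, 657 and 44.6 CPM. It was highest in CS in all 3. In the members 64.8% of the CS UMIs came from 1 cell, and the log2 ratio of CS over CBM without it was 0.13 (-0.30 to 0.56). The part of free RNA in the members' level was not tested.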

How the data were processed

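The authors made the deposited count matrices with Cell Ranger 4.0 on mm10 (submitters' processing notes): unfiltered UMI counts per gene and barcode for 32285 genes, 1 library per group. The study then removed free RNA at a set fraction of 10% and barcodes under 350 genes; those steps are not in the matrices. Here the UMIs of the selected cells were summed per library and given as CPM of all their UMIs, with exact Poisson 95% intervals, and log2 ratios with exact conditional intervals; a gene at 0 counts was set to 3 as a bound. No test was run, since each group is 1 library. Shares of cells with a UMI were thinned to 2000 UMIs (3 TBM members left out). The members and gene lists were chosen with earlier results of these data known. Named genes were the lists, the 8 highest and 8 lowest ratios per comparison at a mean of 100 CPM or more with a UMI in 25% of cells, and the 15 most particular and 10 most abundant genes. Promoters came from RefSeq (GRCm38.p6) and positions from the GRCm38 annotation. Scripts were tested on simulated data. Python 3.11.15, numpy 2.4.6, scipy 1.17.1, pandas 2.3.3 and matplotlib 3.10.9 were used. Values of some listed genes are not reported here.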

Additional observations from a re-analysis of the deposited data

Results flagged for a closer look

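Tubb2a, a tubulin gene, was 2-fold lower in TBM than in CBM and 2-fold higher in TS than in CS over all members, with log2 ratios of -1.74 and 1.68. Of its UMIs 34.9% in CBM and 33.6% in TS came from 1 cell each, and without these cells the ratios were -1.13 and 1.09, or -1.44 and 1.25 without the top cell of the other library as well. The levels were 92.2, 27.6, 171 and 549 CPM in CBM, TBM, CS and TS. With 1 library per group the difference between the organs was not tested. In the cells with 2000 genes or more the ratios were -0.76 and -0.17, at 44.9, 26.6, 56.8 and 50.5 CPM, and in the small cells the levels were 3069, 151, 2892 and 7069 CPM.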

How the results depend on the processing

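No paired analysis was possible because each group is 1 library. Shares are given in the order CBM, TBM, CS, TS, and counts of genes past 2-fold as higher and lower. At 40 marker UMIs per 10000 the shares were 3.32%, 3.23%, 1.92% and 0.848%, thinned to 2000 UMIs 1.99%, 2.84%, 1.71% and 0.871%; at 350 genes TBM and TS came to 2.02% and 3.03%, and at 2000 genes, of barcodes with as many, TBM, CS and TS to 5.79%, 1.97% and 0.95%. For TBM over CBM the lower count was 29 at 350 genes, both counts 637 and 393 in the small cells, 15 and 16 with another total (without selecting, mitochondrial, ribosomal and hemoglobin genes), 27 and 29 at 20 CPM, 1 and 1 at 200 CPM, and the lower count 55 with a mean over cells. For TS over CS the counts were 61 higher at 40 markers, 49 higher at 350 genes, 13 higher at 2000 genes, 125 and 83 in the small cells, 34 and 21 with the other total, 80 and 35 at 20 CPM, 5 and 2 at 200 CPM, 54 and 35 over cells, and 36 higher without the 10% deepest cells. For CS over CBM they were 42 and 4 at 40 markers, 48 and 2 at 350 genes, 7 higher at 2000 genes, 102 and 168 in the small cells, 2 lower with the other total, 42 and 2 at 20 CPM, 6 and 0 at 200 CPM, 286 and 14 over cells, and 36 and 5 without the deepest cells. For TS over TBM they were 158 and 14 at 40 markers, 210 higher at 350 genes, 9 higher at 2000 genes, 479 and 828 in the small cells, 15 lower with the other total, 143 and 32 at 20 CPM, 21 and 1 at 200 CPM, 378 and 39 over cells, and 2 lower without cells of another class or with 10% of free RNA subtracted. With 4 markers, 5% mitochondrial UMIs and median-ratio scaling each of the 8 counts over all genes stayed within 1.5 times and each share within its interval. Of the counts of genes per list, under all alternatives, 2195 stayed within 1.5 times and 301 did not, of which 5, 3 and 1 under these settings in that order. Among genes past 2-fold in the main setting, log2 ratios changed sign as follows. TS over CS: Elane, Ctsg, Prtn3 and Mpo at 40 markers 1.49, 0.99, 0.99 and 0.30, the first 3 without the deepest cells 1.22, 0.87 and 0.82, and without cells of another class or without the top cell 1.25, 0.79 and 0.71. At 2000 genes: Tubb2a TS over CS -0.17, Thbs1 CS over CBM -0.10, Ctla2a and Lmna TS over TBM -0.17 and -0.16. In the small cells: Apoe and Elane TBM over CBM 0.16 and 2.26, Cmah, Pim1 and Prtn3 TS over CS -1.01, -0.077 and 0.39, Jun and Mmd CS over CBM -1.47 and -0.0065, Cmah, Egr1 and Jun TS over TBM -0.33, -4.73 and -1.69. With a mean over cells Elane TBM over CBM was 0.062. The cause was not tested for any of these. Of all other log2 ratios 3901 stayed within their counting interval and 1320 moved outside it. Sign changes of genes not past 2-fold in the main setting were not counted apart and fall among these. Depth limits genes under about 10 CPM, where few UMIs were counted, and the members of TS, which hold the fewest UMIs.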
